A study of Mus musculus with 4 samples.

Results

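The oocyte signals to the granulosa cells around it and is held to them by junctions, and 7 genes of this exchange were followed through oocyte growth: the growth factor genes Gdf9, Bmp15, Bmp6 and Fgf8, the secreted protein gene Oosp1, the gap junction gene Gja4 and the cadherin gene Cdh1. They were chosen by symbol, though with earlier results of these data known. They are 7 of the 25587 genes for which the authors deposited values, with each symbol found in 1 row. RNA was sequenced from wild-type C57BL/6Babr mouse oocytes at 4 stages: non-growing oocytes (NGOs) from mice of 5 days post-partum (dpp) with a diameter of 10 to 40 µm, growing oocytes from mice of 8 to 14 dpp (GO1, 25 to 70 µm) and of 15 dpp (GO2, 50 to 70 µm), and fully grown oocytes (FGOs) from mice of 20 dpp above 70 µm. Each stage was 1 library from a pool of many oocytes, made from total RNA depleted of ribosomal RNA, so no stage has a replicate and no test between stages could be made. The dUTP protocol was used for NGO and FGO, and the ScriptSeq kit for both growing stages. NGOs and FGOs can therefore be compared within 1 protocol, as can GO1 and GO2, whereas from NGOs to GO1 and from GO2 to FGOs stage and protocol cannot be told apart.

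Gdf9 and Bmp15 encode ligands of the TGF-beta superfamily that are made by the oocyte and act on granulosa cells through type I and type II serine/threonine kinase receptors and SMAD proteins. Female mice without Gdf9 are infertile because follicles stop growing at the primary stage, and Bmp15 acts together with it in the growth and ovulation of later follicles. Bmp6 encodes a further ligand of the superfamily, and Fgf8 a fibroblast growth factor that cooperates with BMP15 in steering the metabolism of cumulus cells. Oosp1 encodes a small secreted protein made mainly by the oocyte, whose function is less clear. Gja4 encodes the connexin with which the oocyte builds its side of gap junctions to granulosa cells, and Cdh1 encodes E-cadherin, an adhesion protein on the oocyte surface.

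All 7 genes were detected in every library, and each was far above the median gene, which had an RPKM (the unit of the deposited values, reads over exon length and library total) between 0.143 and 0.173. In sum, the 7 genes had an RPKM of 1557 in the NGO library, 1624 in GO1, 1754 in GO2 and 2351 in the FGO library, or 0.536 %, 0.568 %, 0.646 % and 0.768 % of the counts on genes. Gdf9 ranked between 8 and 13 among all genes, and Cdh1 between 1414 and 3748. The genes lay on 6 chromosomes (11, X, 13, 19, 4 and 8), with only Fgf8 and Oosp1 on the same one. In bulk libraries fewer cells of a type and less RNA per cell cannot be told apart, and RPKM measures a share of the library, not RNA per oocyte.

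Changes are given below as log2 ratios of counts recovered from RPKM, after scaling the libraries by a trimmed mean of the genes' log ratios. From NGOs to FGOs, 3 of the 7 genes were at least 2-fold higher (Bmp15, Oosp1 and Cdh1), against 17.3 % of the 15253 genes that had 20 or more counts in the pair. No member was 2-fold lower in FGOs, against 17.3 % of all genes, and the share lower equals the share higher because 2632 genes passed in each direction. The median of the 7 changes was 0.90 and that of all genes -0.04. From GO1 to GO2, by contrast, no member passed 2-fold in either direction, in a comparison where 6.88 % of 15733 genes were higher and 2.84 % lower. The 7 changes there lay between -0.17 for Bmp6 and 0.30 for Bmp15. With 7 genes chosen by hand and 1 library per stage, these counts describe the members and carry no test.

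**Figure D1:**
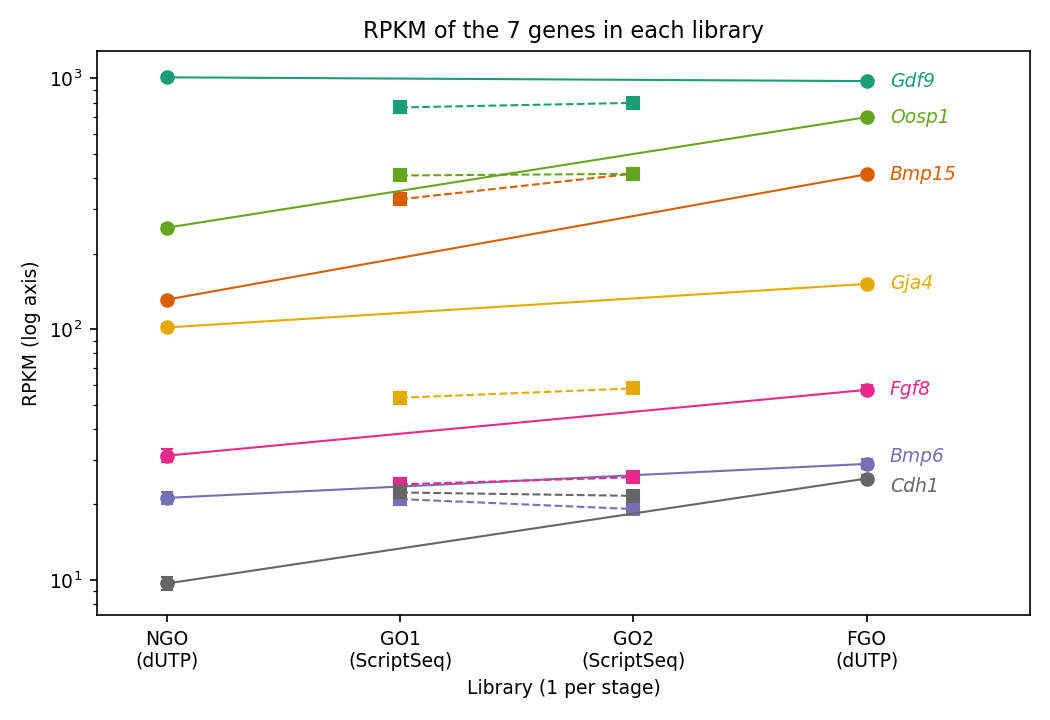
RPKM of the 7 genes (log axis) in the 4 libraries, with circles for libraries of the dUTP protocol joined by solid lines and squares for those of the ScriptSeq kit joined by dashed lines. Bars are 95 % Poisson intervals with counts divided by 4, mostly smaller than the symbols. Gdf9 lies highest in every library, Oosp1 is nearest to it in FGOs and Bmp15 in GO2, and Gja4 and Fgf8 are lower in GO1 and GO2 than in either dUTP library.

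Of the ligand genes, Gdf9 had the highest level and the smallest range. Gdf9 (chromosome 11, positions 53431023 to 53437904 on the plus strand, GRCm38, 2031 bp of exons) had an RPKM of 1009 in the NGO library, 765 in GO1, 798 in GO2 and 974 in the FGO library. It was thus among the most abundant RNAs already in the NGO library, ranking 10th, 13th, 11th and 8th in these libraries. The diameters of the NGO pool (10 to 40 µm) overlap those of GO1 (25 to 70 µm). Whether all oocytes of the NGO pool were yet to grow was not tested. The counts behind these values were 226578, 196982, 391041 and 236721, and the 95 % Poisson interval of the NGO value was 1005 to 1013. From NGOs to FGOs the log2 change was -0.03 (95 % interval for counting error -0.03 to -0.02), larger than that of 50.6 % of all genes. Between the ScriptSeq libraries the change was 0.03. The highest and lowest RPKM differed 1.32-fold, with both ScriptSeq libraries below both dUTP libraries.

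Bmp15, the partner ligand of Gdf9, showed the largest difference between NGOs and FGOs of the 7 genes. Bmp15 (chromosome X, positions 6314107 to 6320721 on the minus strand, 2 exons, 3060 bp) had an RPKM of 131 in the NGO library, 329 in GO1, 416 in GO2 and 414 in the FGO library. NGOs were the low library, and the other libraries lay between 329 and 416. FGOs exceeded NGOs by a log2 change of 1.68 (1.67 to 1.70), a 3.21-fold higher level in FGOs, and 89.7 % of all genes had a smaller change. GO2 was 0.30 higher than GO1 on the log2 scale (0.30 to 0.31), the largest change of a member in this pair and still under 2-fold. In rank, Bmp15 went from 136 in NGOs to 52, 33 and 36 in the later libraries.

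The promoters of Bmp15 and Oosp1, which were both past 2-fold from NGOs to FGOs, are shown beside that of Gja4, which was not. They come from RefSeq (GRCm38.p6), whose promoters were given for 4 of the 7 genes (Bmp15, Bmp6, Oosp1 and Gja4). Each is the part of the 250 bases before the RefSeq start that lies outside GENCODE exons, written 5′ to 3′ on the strand of the gene, with E-boxes (CANNTG, the motif bound by basic helix-loop-helix factors such as FIGLA and the SOHLH proteins) in capitals. The windows are chrX:6320725-6320974 on the minus strand for Bmp15 (250 bases), chr19:11691151-11691301 on the minus strand for Oosp1 (151 bases) and chr4:127314040-127314289 on the minus strand for Gja4 (250 bases).
Bmp15: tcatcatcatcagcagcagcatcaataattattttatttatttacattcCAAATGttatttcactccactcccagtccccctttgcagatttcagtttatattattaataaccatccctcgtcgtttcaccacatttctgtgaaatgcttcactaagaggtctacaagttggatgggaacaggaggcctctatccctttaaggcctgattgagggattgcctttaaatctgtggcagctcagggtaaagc
Oosp1: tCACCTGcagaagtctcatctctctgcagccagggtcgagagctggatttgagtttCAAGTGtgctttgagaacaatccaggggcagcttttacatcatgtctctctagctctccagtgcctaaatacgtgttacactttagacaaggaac
Gja4: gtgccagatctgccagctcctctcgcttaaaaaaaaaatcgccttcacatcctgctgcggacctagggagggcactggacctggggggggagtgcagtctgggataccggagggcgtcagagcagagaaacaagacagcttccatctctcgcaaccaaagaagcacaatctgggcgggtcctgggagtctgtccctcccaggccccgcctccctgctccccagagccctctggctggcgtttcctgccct

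Counted from the RefSeq start, Bmp15 held 1 E-box in its 250 upstream bases, at -201. It also held 1 match to the TATA box motif (TATAAA) at -155, on the strand opposite to the gene, so the printed strand reads TTTATA there. Oosp1 held 5 E-boxes in its whole 250-base window, at -249, -194, -93, -59 and -48, and 1 nuclear receptor motif (AGGTCA) at -52, which shares bases with the E-box at -48. The matches at -93, -59, -52 and -48 lie within GENCODE exons and so outside the printed stretch. Bmp6 held 2 E-boxes, at -127 and -51, and Gja4 none. The whole Bmp6 window lies within GENCODE exons, so both of its matches are exonic in that annotation. The motif read for NOBOX (TAATTG) was in none of the 4, and no other form of a NOBOX site was searched for. Both strands were searched, and 66.2 % of 32851 RefSeq promoters hold an E-box in these 250 bases, 12.4 % TATAAA, 14.02 % AGGTCA and 7.17 % TAATTG, so most promoters share the E-box and a match is no sign of binding. The printed stretches differ in base composition, with a GC content of 40.4 % for Bmp15, 47.0 % for Oosp1 and 61.2 % for Gja4, the median over all RefSeq promoters of the table being 52.4 %.

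Bmp6 was low among the ligands and had the second smallest range. Bmp6 (chromosome 13, positions 38345716 to 38499728 on the plus strand) had an RPKM of 21.2 in the NGO library, 21.0 in GO1, 19.1 in GO2 and 29.0 in the FGO library. The first 3 libraries were close to each other and FGOs were the highest. FGOs exceeded NGOs by a log2 change of 0.47 (0.43 to 0.52), or 1.39-fold, and the change from GO1 to GO2 was -0.17 (-0.21 to -0.12), both under 2-fold. The exon length behind its deposited values was not that of GENCODE but is at least 2410 bp, and GENCODE exons of Bmp6 overlap Txndc5 on the other strand. As the strand setting behind the values is not given in the sources used here, reads of the pair may not have been told apart.

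Fgf8 was at its highest in FGOs. Fgf8 (chromosome 19, positions 45736798 to 45742915 on the minus strand, 1350 bp) had an RPKM of 31.3 in the NGO library, 24.0 in GO1, 25.7 in GO2 and 57.2 in the FGO library. Its level was alike in GO1 and GO2, lower there than in NGOs, and highest in FGOs by a wide margin. Between NGOs and FGOs its log2 change was 0.90 (0.84 to 0.95), or 1.86-fold and so under 2-fold. The change from GO1 to GO2 was 0.06 (0.01 to 0.12), an interval that includes 0 with counts divided by 4 (-0.05 to 0.17). Fgf8 moved from rank 1069 in NGOs to rank 484 in FGOs.

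Oosp1, the gene of the small secreted protein, was among the most abundant RNAs of FGOs. Oosp1 (chromosome 19, positions 11667460 to 11691150 on the minus strand, 972 bp) had an RPKM of 254 in the NGO library, 409.5 in GO1, 416 in GO2 and 699.6 in the FGO library. NGOs were lowest and FGOs highest, with the ScriptSeq libraries between them and almost equal. FGOs exceeded NGOs by a log2 change of 1.49 (1.47 to 1.51), a 2.81-fold higher level in FGOs. The GO1 to GO2 change was -0.01, and its interval of -0.03 to 0.00 includes 0. The rank of Oosp1 was 63 in the NGO library, 37 in GO1, 34 in GO2 and 15 in the FGO library.

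The 2 junction genes did not run in parallel. Gja4 (chromosome 4, positions 127311421 to 127314039 on the minus strand, 2 exons, 1685 bp) had an RPKM of 101 in the NGO library, 53.2 in GO1, 58.0 in GO2 and 151 in the FGO library. Both dUTP libraries were above both ScriptSeq libraries. From NGOs to FGOs the log2 change of Gja4 was 0.60 (0.57 to 0.63), or 1.52-fold, and from GO1 to GO2 it was 0.09 (0.06 to 0.12). Cdh1 (chromosome 8, positions 106603351 to 106670246 on the plus strand, 4574 bp) had an RPKM of 9.67 in the NGO library, 22.3 in GO1, 21.6 in GO2 and 25.3 in the FGO library. NGOs were the low library for Cdh1, and the other libraries were close together. Its log2 change from NGOs to FGOs was 1.41 (1.37 to 1.46), a 2.67-fold higher level in FGOs, and from GO1 to GO2 it was -0.08 (-0.11 to -0.05). The ratio of Gja4 to Cdh1 in RPKM was accordingly 10.5 in the NGO library, 2.39 in GO1, 2.68 in GO2 and 5.97 in the FGO library.

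Across protocols the values are given side by side only. From NGOs to GO1, Bmp15 was 1.496 higher on the log2 scale and Cdh1 1.37 higher, both past 2-fold, where 17.5 % of 15121 genes were higher by that much. Oosp1 followed with 0.86 and Bmp6 with 0.15, while Fgf8 (-0.21), Gdf9 (-0.23) and Gja4 (-0.76) had lower levels in GO1, none of them by 2-fold, where 20.5 % of all genes were. From GO2 to FGOs, Gja4 was 1.28 higher (2.42-fold) and Fgf8 1.05 higher (2.07-fold), against 10.9 % of 15789 genes. The other 5 members had changes between -0.12 for Bmp15 and 0.64 for Oosp1, and none was 2-fold lower, against 9.23 % of all genes. The largest difference between neighbouring libraries was thus from NGOs to GO1 for Bmp15 and Cdh1, and from GO2 to FGOs for Fgf8 and Gja4. Both steps change the protocol as well as the stage, so no timing can be read from them. Scaling by the totals behind the deposited RPKM shifted all genes by -0.17 from NGOs to GO1 and by 0.11 from GO2 to FGOs, and turned the sign of Bmp6 from NGOs to GO1 (0.15 to -0.02).

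**Figure D2:**
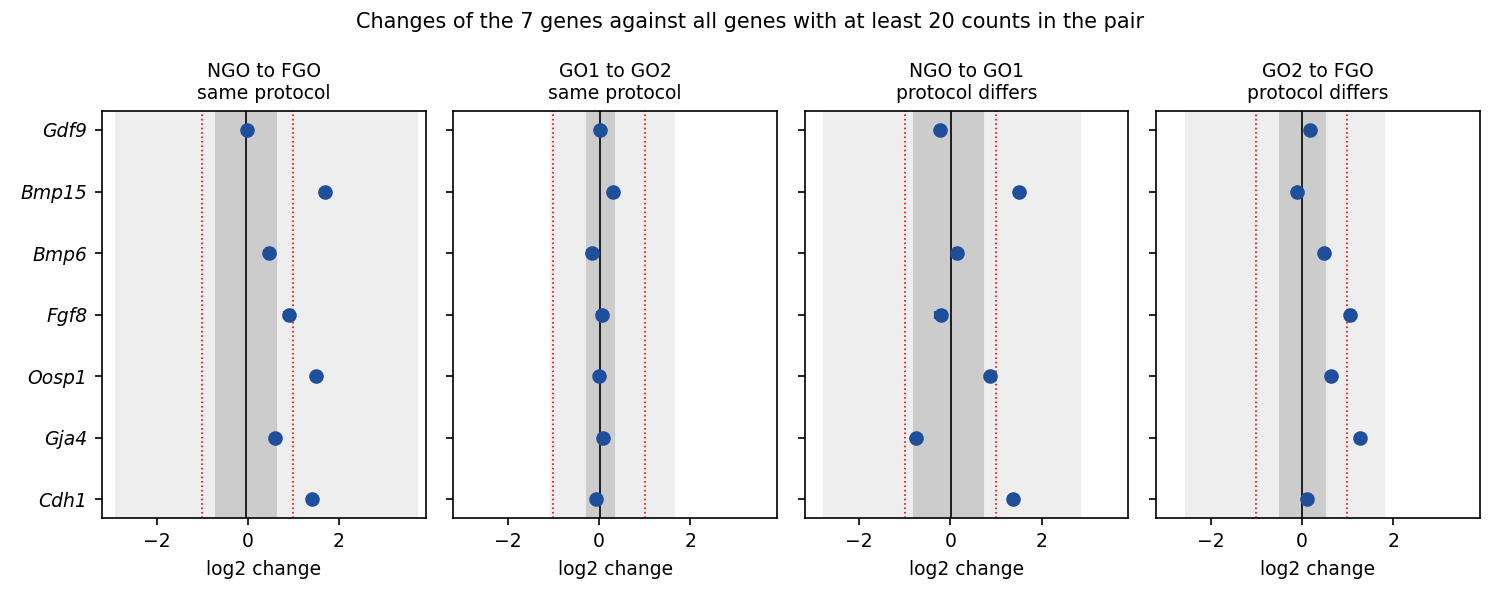
Log2 change of each of the 7 genes in the 4 pairs of libraries, with points for the change and bars for 95 % intervals from counts divided by 4. The dark band holds the middle 50 % and the pale band the middle 95 % of all genes that had 20 or more counts in the pair, the black line is their median, and the dotted lines mark 2-fold. From NGOs to FGOs Bmp15, Oosp1 and Cdh1 lie past 2-fold, and from GO1 to GO2 all 7 genes lie between -0.17 and 0.30.

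Within a library the levels can be set against each other without any scaling between libraries, since RPKM is per length. Such ratios may still depend on the protocol. Where they are compared between a dUTP and a ScriptSeq library, stage and protocol cannot be told apart. Gdf9 was the highest of the 7 in every library, and its ratio to Bmp15 was 7.70 in the NGO library, 2.32 in GO1, 1.92 in GO2 and 2.35 in the FGO library. The ratio of the ligand partners was thus highest in NGOs, while the 3 later libraries differed little from each other. Gdf9 stood 3.98-fold above Oosp1 in NGOs and 1.39-fold above it in FGOs, with 1.87 in GO1 and 1.92 in GO2. Its share of the summed RPKM of the 7 genes was 64.8 % in the NGO library, 47.1 % in GO1, 45.5 % in GO2 and 41.4 % in the FGO library. Against Fgf8, the ratio of Gdf9 was 32.3, 31.8 and 31.1 in NGOs, GO1 and GO2, and 17.0 in FGOs. The ratio of Gdf9 to Cdh1 was 104 in NGOs and between 34.3 and 38.4 in the other libraries. Bmp15 was 6.18-fold above its relative Bmp6 in NGOs, 15.7-fold in GO1, 21.7-fold in GO2 and 14.3-fold in FGOs.

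**Figure D3:**
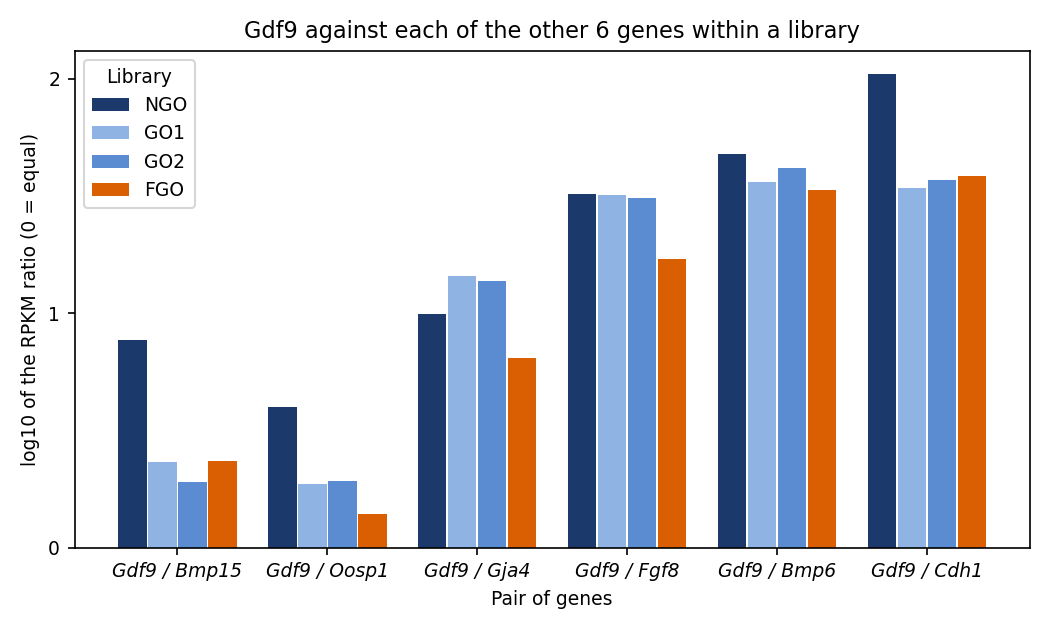
Log10 of the ratio of the RPKM of Gdf9 to that of each of the other 6 genes within each library (1 bar per library, 0 means equal levels). The bars against every gene but Gja4 are highest in NGOs, for Fgf8 only slightly. Those against Oosp1, Gja4, Fgf8 and Bmp6 are lowest in FGOs, and no bar reaches 0.

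In NGOs and FGOs the order from the highest level was Gdf9, Oosp1, Bmp15, Gja4, Fgf8, Bmp6 and Cdh1. In GO1 Cdh1 stood above Bmp6 by a ratio of 1.063 (1.03 to 1.10), and in GO2 by 1.13. In GO2 Bmp15 and Oosp1 did not differ beyond counting error, with a ratio of 1.001 (0.994 to 1.01), and every other pair of neighbours in the 4 orders had an interval above 1. These intervals cover counting error only, and the spread between libraries of 1 stage is not known. They were not repeated with counts divided by 4. The place of Bmp6 next to Cdh1 also rests on values that may hold reads of Txndc5 and whose exon length was not that of GENCODE.

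Likeness of profile was measured as the root mean square difference of log2(RPKM + 0.1) profiles, each centred on its own mean, over the 4 libraries, where 0 means the same shape. The closest members were Bmp6 and Gdf9 (0.19), Bmp15 and Cdh1 (0.19) and Fgf8 and Gja4 (0.22), and the most distant were Bmp15 and Gja4 (0.99). Among 10748 genes that had 100 or more counts in each library, the profile nearest to Gdf9 was that of Atp6v1e1 (0.0099), followed by Rnf4 and Zfp784, and that nearest to Bmp15 was Tmem117 (0.038), followed by Zfp568 and Axin2. Bmp6 was nearest to Mrps30 (0.0080), Slc1a1 and Tmem104, and Fgf8 to Nip7 (0.039), Tusc1 and Arhgef1. Oosp1 was nearest to Fam84a (0.043), Arhgef10l and Trp73, Gja4 to Gm13965 (0.039), Gatsl3 and Gm2301, and Cdh1 to Arhgap11a (0.051), 1190002N15Rik and Lpar1. With 4 points per profile and 2 libraries per protocol, such likeness is given as a description. None of these nearest genes came from the lists of related genes described next.

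Among other genes of secreted oocyte proteins, both remaining OOSP genes followed Oosp1 in direction, and the zona pellucida genes did not. Oosp3 (listed as Gm97) had an RPKM of 47.9 in the NGO library, 149 in GO1, 150.4 in GO2 and 342 in the FGO library, and Oosp2 (listed as Plac1l) 60.6, 98.1, 117 and 138. Their log2 changes from NGOs to FGOs were 2.86 and 1.21, so all 3 OOSP genes were past 2-fold. Zp2 and Zp3, which encode proteins of the egg coat, had log2 changes of -1.08 and -1.09. Of the 7 listed genes, 2 were 2-fold higher in FGOs and 3 lower (the third being Plac1, under 0.3 RPKM), with a median of -0.78, and from GO1 to GO2 none passed 2-fold.

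Beyond the members, few ligands of either family reached an RPKM of 1. Of 31 further genes listed with the TGF-beta ligands, 4 did so in any library (Bmp5, Inha, Tgfb2 and Tgfb3), and of 21 further FGF ligands 4 did (Fgf1, Fgf7, Fgf9 and Fgf16). The highest of them in GO2 was Tgfb2, with an RPKM of 19.2 in the NGO library, 51.4 in GO1, 41.8 in GO2 and 29.9 in the FGO library, above Bmp6 in GO1, GO2 and FGOs. Bmp5 had 1.81, 9.19, 12.4 and 13.2 in the same order, a log2 change of 2.89 from NGOs to FGOs, so it moved in the direction of Bmp15. Tgfb3 had a change of 1.04 and Inha, the inhibin alpha subunit, of 1.29. Of the 14 TGF-beta list genes with enough counts, 6 were 2-fold higher and 2 lower in FGOs, with a median of 0.70, and 1 of the lower genes, Bmp1, encodes a metalloprotease rather than a ligand. Of 8 FGF ligands with enough counts, 5 were higher and 1 lower with a median of 1.35, including Fgf1 (4.37, RPKM of 0.0506 in NGOs and 1.063 in FGOs), Fgf7 (1.73) and Fgf9 (1.01). In both lists some genes past 2-fold, in either direction, stayed well under 1 RPKM with few counts, and they enter the medians. Between GO1 and GO2 none of 11 TGF-beta list genes passed 2-fold, and of 9 FGF ligands 1 was higher and 2 were lower.

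The receptors of these ligands were mostly moderate in level. Of 18 receptor genes, 11 reached an RPKM of 1, and of 14 with enough counts 3 were 2-fold higher and 1 lower in FGOs, with a median of 0.36. Fgfr2, a receptor of FGF ligands, had an RPKM of 1.09 in the NGO library, 2.55 in GO1, 4.33 in GO2 and 5.73 in the FGO library, a log2 change of 2.42. Tgfbr3, a co-receptor, had 1.90, 4.37, 5.08 and 5.57, a change of 1.57. Bmpr2, the type II receptor through which GDF9 and BMP15 act, had 4.70, 10.2, 10.5 and 7.33, and Bmpr1b, a type I receptor, 10.5, 19.0, 18.5 and 15.6, with changes of 0.66 and 0.60 from NGOs to FGOs. Acvr1b, a type I receptor of activins, had a change of 0.88, also under 2-fold. Between GO1 and GO2, 1 of the 14 receptor genes was higher and none lower.

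The SMAD proteins carry the signals of these receptors to the nucleus. Of 7 SMAD genes with enough counts none was 2-fold higher and 1 was lower in FGOs, with a median of -0.08. Smad2 had an RPKM of 23.2 in the NGO library, 27.0 in GO1, 28.1 in GO2 and 24.8 in the FGO library, while Smad3, with which it transmits GDF9 signals, had 15.6, 18.3, 24.6 and 28.9, a log2 change of 0.91. Smad5, which transmits BMP signals, had a change of -0.49, and Smad1 of -0.13. Among convertases, which cleave such ligands from their precursors, none of 7 with enough counts was 2-fold higher and 1 was lower, with a median of -0.11, whereas from NGOs to GO1, across protocols, 3 of 7 were lower, with a median of -0.78. Furin had 6.52, 6.33, 5.34 and 9.89 RPKM, a change of 0.63, the related protease Mbtps1 a change of -0.20 and Pcsk7 of -0.21. In GO2 against GO1, 1 of 8 SMAD genes was lower and none of 6 convertase genes passed 2-fold.

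Of 14 antagonist genes, 5 reached an RPKM of 1, and of 8 with enough counts 4 were 2-fold higher and 1 lower in FGOs, with a median of 0.45. Sost had an RPKM of 0.381 in the NGO library, 0.672 in GO1, 1.58 in GO2 and 3.62 in the FGO library, a log2 change of 3.26, and Bmper, Fstl1 and Dand5 had changes of 1.40, 1.11 and 1.07. The highest antagonist gene in GO2, Twsg1, had 9.53, 9.94, 10.5 and 8.33 and was under 2-fold. From GO1 to GO2, 1 of 8 was higher and 1 lower.

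Gja4 had by far the highest level of the connexin genes in each library. Of 19 further connexin genes, 2 reached an RPKM of 1 in any library: Gjb1 with 0.916 in the NGO library, 0.679 in GO1, 1.32 in GO2 and 3.98 in the FGO library, and Gjc1 with 1.003, 0.968, 0.603 and 0.179. Their log2 changes from NGOs to FGOs were 2.14 and -2.45. Of 11 with enough counts, 6 were 2-fold higher in FGOs and 1 lower, with a median of 1.34, most of them at well under 1 RPKM. Gja1, the main connexin gene of granulosa cells, had an RPKM of at most 0.318. In GO2 against GO1, 3 of 10 connexin genes were higher by 2-fold and none lower, while Gja4 had a change of 0.09.

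Around Cdh1, the adherens junction genes held a mixed set. Of 18 listed genes 17 were found in the table, and 12 reached an RPKM of 1. The partner of E-cadherin with the highest level, Ctnnb1 (beta-catenin), had an RPKM of 45.1 in the NGO library, 38.2 in GO1, 43.6 in GO2 and 62.1 in the FGO library, a log2 change of 0.49, and exceeded Cdh1 in every library. Cdh2 (N-cadherin) had 0.252, 0.745, 0.763 and 1.08, a change of 2.11 with NGOs low as for Cdh1, and Ctnna3 a change of 1.51. Jup (plakoglobin) had 5.16, 1.97, 1.60 and 2.23, a change of -1.18, and Vcl (vinculin) a change of -0.86. Of 16 genes with enough counts, 2 were higher by 2-fold and 3 lower, with a median of 0.39, and from GO1 to GO2 none was higher and 1 lower.

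Of the oocyte transcription factor genes known for acting on oocyte genes, none of 9 was 2-fold higher and 4 were lower, with a median of -0.54. Figla had an RPKM of 102 in the NGO library, 38.9 in GO1, 23.6 in GO2 and 20.6 in the FGO library, a log2 change of -2.28. Sohlh1 had 78.0, 2.35, 1.09 and 0.577, a change of -7.04, Sohlh2 a change of -2.57 and Tbpl2 of -1.22. Nobox, the homeobox factor with the highest level in GO2, had 125, 101, 114 and 104, a change of -0.24. From GO1 to GO2, Sohlh1 was lower by 2-fold (-1.14) and none of the 9 was higher.

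**Figure D4:**
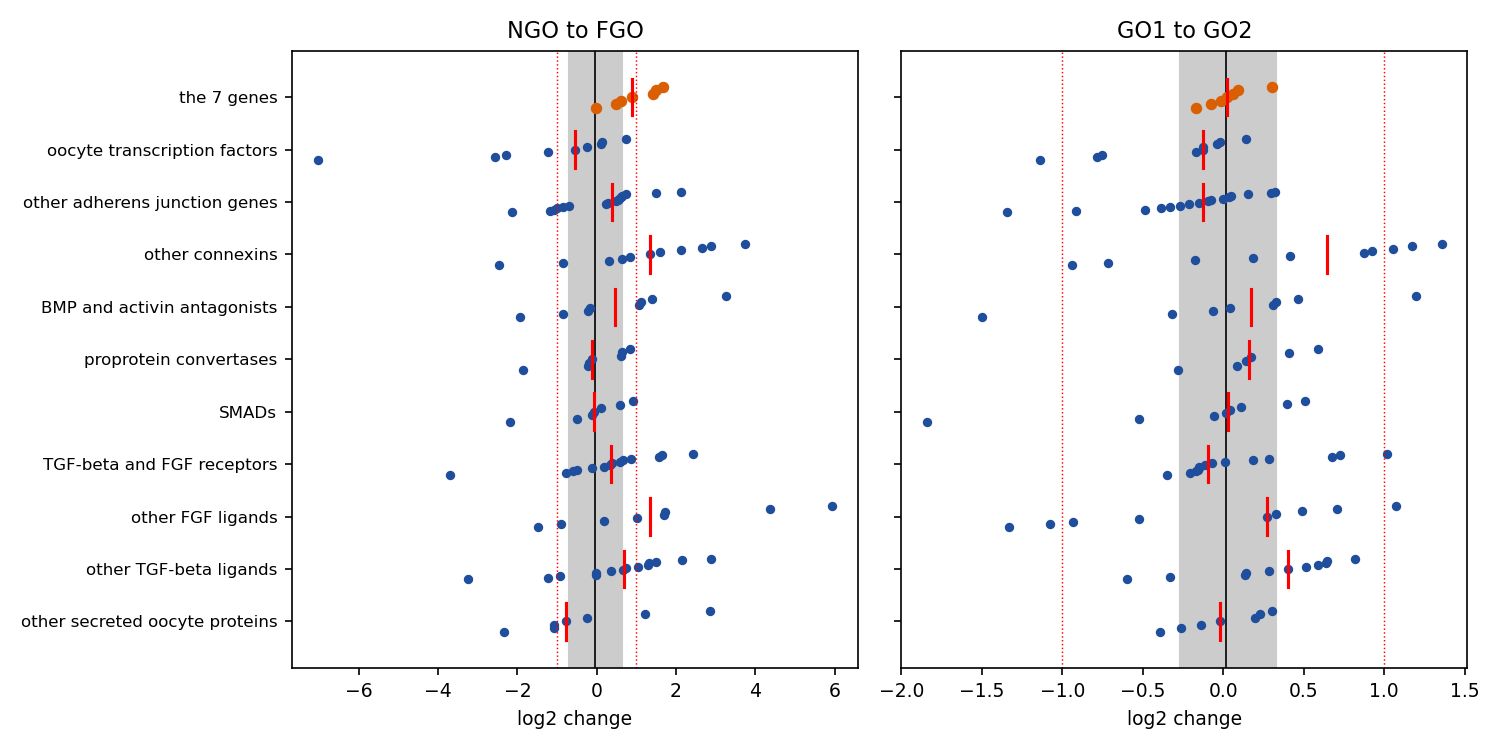
Log2 changes of 2 pairs of libraries, NGOs to FGOs at left and GO1 to GO2 at right (axes of different range) for the 7 genes (orange) and for each list of related genes (blue), 1 point per gene that had 20 or more counts in the pair, spread vertically only to be seen. Red bars are list medians, the grey band is the middle 50 % of all genes, the black line their median, and dotted lines mark 2-fold. The 7 genes have a median of 0.90 at left and 0.03 at right.

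The libraries were oocyte libraries by their markers, with all 8 oocyte markers above an RPKM of 1 in each. Their summed RPKM was 3167 in the NGO library, 1937 in GO1, 1860 in GO2 and 1716 in the FGO library. From NGOs to FGOs none of the 8 was 2-fold higher and 4 were lower, with a median of -0.97. Between GO1 and GO2 none passed 2-fold. The 10 granulosa markers summed to 6.31 in the NGO library, 12.2 in GO1, 16.6 in GO2 and 19.3 in the FGO library, and Bmp15, Oosp1 and Cdh1 were also lowest in NGOs. The largest part of the sum came from Nr5a2 (3.62, 9.57, 11.4 and 8.65) and Cyp19a1 (0.518, 1.08, 3.13 and 6.08), while the defining markers Foxl2 and Amh had at most 0.0753 and 0.412. Taken singly, the granulosa markers did not follow their sum: from NGOs to GO1 2 of 10 were 2-fold higher and 5 lower (Amh, Foxl2, Inha, Inhba and Inhbb), with a median of -0.71. From GO2 to FGOs, where Gja4 and Fgf8 were higher, Amh (4.06), Inha (2.45) and Inhbb (1.63) were higher too, and none of 9 was 2-fold lower. Between NGOs and FGOs 5 of 10 were higher and 1 lower, with a median of 0.95, and between GO1 and GO2 1 of 8 was higher and none lower. The 6 stroma and theca markers summed to 5.45 in NGOs and to at most 0.263 in the other libraries, with Col1a1 at 2.24 in NGOs. The 4 markers of the ovarian surface epithelium summed to between 1.92 and 2.51. Of these, Krt8 lay between 0.986 and 1.82, while Krt18 and Krt19 had at most 0.0969 and 0.0536. Upk3b had 0.239 in the NGO library, 0.672 in GO1, 0.892 in GO2 and 0.991 in the FGO library. Its log2 change from NGOs to FGOs was 2.06, and that of Krt8 was -0.60. Of 3 endothelial markers Pecam1 had 1.74 in NGOs and 9.70 in FGOs, with Cdh5 at most 0.0408. The 3 immune markers summed to at most 0.645, and 2 of 3 blood markers in the table to 1.16 in NGOs and at most 0.0051 elsewhere. The part of other cells in the members' values was not tested.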

How the data were processed

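RNA-Seq values of 4 mouse oocyte libraries (NGO, GO1, GO2 and FGO, 1 per stage) were analysed, grouped by the labels. Per the labels and the study's methods, the authors trimmed 100-bp strand-specific read pairs with Trim Galore 0.2.8 and mapped them to GRCm38 with TopHat2 2.0.9. The authors deposited RPKM values on a linear scale, although the name of the table speaks of read counts. The gene annotation, counting program and strand setting behind them are not given in the sources used here. The table holds no further per-sample column and no comparison by the authors.

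Counts were recovered by fitting library totals at which RPKM times exon length was whole (within 0.02 counts) for single-exon GENCODE M21 genes, which held for 99.4 % to 99.7 % of values. The exon length of other genes was the GENCODE exon union (9611 genes), a transcript (1503) or the smallest length giving whole counts (9908). The counts on genes were 62012823 in NGO, 72203194 in GO1, 133591644 in GO2 and 69205121 in FGO. A floor of 3 counts corresponds to an RPKM between 0.0124 and 0.0271 for 1 kb of exons. The fitted totals exceed the reads sequenced, so a read pair may be counted more than once. In that case the intervals from the full counts are too narrow. Intervals (95 %, exact Poisson for levels and conditional binomial for ratios) cover counting error only. They were repeated with counts divided by 4, except for ratios between genes within a library.

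Libraries were brought to 1 scale by a trimmed mean of the genes' log ratios (30 % of ratios and 5 % of means trimmed, GO2 as reference, prior count of 1). Genes with at least 20 counts in a pair were compared, and a change past 2-fold was counted. With 1 library per stage no test was made, and no count-model program was used. Scripts (Python 3.11.15, numpy 2.4.6, pandas 2.3.3, scipy 1.17.1, matplotlib 3.10.9) were tested on simulated data. The members and gene lists were chosen with earlier results of these data known. Named genes are the 7 members, up to 4 genes per list with an RPKM of at least 1 and the largest change within a protocol, the highest of each list in GO2, the 3 genes nearest to each member in profile, and markers. Plac1, Bmp1 and Gja1 were named outside this rule after their values were seen.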

Additional observations from a re-analysis of the deposited data

How the results depend on the processing

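With a threshold of 4-fold, no member was higher from NGOs to FGOs (0), from NGOs to GO1 (0) or from GO2 to FGOs (0). With 1.5-fold, 5 members were higher from NGOs to FGOs and 1 was lower from NGOs to GO1. Scaling by counts without the 10 most counted genes of each library made 1 member, Gja4, 2-fold lower from NGOs to GO1 (-1.02) and shifted all genes by up to -0.26. Under it the change from NGOs to FGOs shifted by -0.09, which is more than the margin by which Fgf9 (1.01), Tgfb3 (1.04) and Dand5 (1.07) passed 2-fold. The other counts of members past 2-fold kept within 1.5 times under each scaling, prior count and count minimum tried. Across scalings and priors, FGOs exceeded NGOs by log2 changes of 1.59 to 1.69 for Bmp15, 1.39 to 1.498 for Oosp1, 1.32 to 1.42 for Cdh1 and 0.80 to 0.91 for Fgf8. With a pseudocount of 1, the 3 nearest profiles were not the same for any member, with 2 of 3 genes shared for Gdf9 and Cdh1, 1 for Bmp6, Fgf8, Oosp1 and Gja4 and 0 for Bmp15, and with a minimum of 20 counts 2 of 3 were shared for each member but Bmp6, for which all 3 were. With the length of the longest coding transcript, chosen as an alternative after seeing the data, levels of Gdf9 and Fgf8 would be up to 1.16-fold higher. No paired analysis was possible because each stage has 1 library, and for the same reason no library could be left out. Counting error is small for these genes (95 % interval widths of 0.01 to 0.12 on the log2 scale, or 0.24 at most with counts divided by 4); the spread between replicates is not known.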
